A study of Homo sapiens with 16 samples.

Results

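A set of 40 genes of the endoplasmic reticulum (ER) secretory pathway and the unfolded protein response was followed in human myeloma cells treated with inhibitors of the histone methyltransferases EZH2 and G9a. The members were listed by gene symbol, and each was read through its own probe on the array, taking the brightest over the 16 arrays where a gene had several; the rule used no response to treatment. They were 40 of the 32080 gene symbols on the array. RPMI-8226 and MM.1S are established lines of malignant plasma cells. Each was treated for 6 days with vehicle (DMSO), with GSK126 (1 µM), an EZH2 inhibitor, with UNC0638 (1 µM), a G9a inhibitor, or with GSK126 + UNC0638 (1 µM each), and each of the 8 groups held 2 single-colour arrays described as biological replicates. All arrays of a cell line lay on 1 slide with 1 scan, so a difference between the cell lines and a difference between slides cannot be told apart. On each slide a treatment took 1 column and a replicate number 1 row, so position on the slide cannot be told apart from these either. Levels are given as log2 intensity minus the 75th percentile of the array, so that 0 is the brightness at that percentile.

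Plasma cells secrete large amounts of immunoglobulin, and the ER folds, oxidizes and checks these chains before they are exported. When unfolded chains accumulate, IRE1 (encoded by ERN1), ATF6 and PERK (encoded by EIF2AK3) signal from the ER membrane. IRE1 splices the XBP1 transcript so that it encodes an active transcription factor, and XBP1 and ATF6 induce chaperones, disulfide enzymes, translocation proteins and the machinery that returns misfolded proteins to the cytosol for degradation (ER-associated degradation, ERAD). The array has 1 probe for XBP1, at chr22:29190733-29190792 (GRCh37, minus strand), and it read total XBP1 transcript. The spliced form was not measured separately.

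Both lines carried the marks of secretory cells. XBP1 was well above background on all 16 arrays, and the plasma cell markers SDC1, CD38, TNFRSF17, PRDM1, IRF4, SLAMF7, MZB1 and IGJ were above background on all 8 arrays of each line, whereas the B cell genes PAX5 and CD22 were on none. Of the other B cell markers CD79A was above background on all 8 arrays of both lines, CD79B on the 8 MM.1S arrays, and MS4A1 on 5 RPMI-8226 and 2 MM.1S arrays. The 75th percentile intensity was 256 to 349 in RPMI-8226 and 431 to 477 in MM.1S arrays, 46.5% to 52.8% of spots were well above background, and no spot was saturated. In each line 39 of the 40 members were tested. The disulfide oxidase gene ERO1LB was not well above background on any RPMI-8226 array, and AGR2 was not on any MM.1S array.

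The promoters of several members carry sequences that the unfolded protein response factors are known to bind. RefSeq promoters (GRCh38.p14, 250 bases before to 50 after the transcription start) were found for 35 of the 40 members. They were searched on both strands for the ER stress response element ERSE (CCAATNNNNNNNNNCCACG), ERSE-II (ATTGGNCCACG) and the unfolded protein response element UPRE (TGACGTGG), whose last 5 letters are the complement of CCACG, so that it can overlap either of the others. ERSE was found for 8 of the 35 members (22.9%), against 0.0916% of the 27305 genes in the promoter table: CALR, CANX, CRELD2, ERO1LB, HSP90B1, HSPA5, PDIA6 and XBP1. ERSE-II was found for HERPUD1, HYOU1 and SDF2L1 (8.57% of members and 0.0696% of genes), and UPRE for DNAJC10, HYOU1 and SSR3 (8.57% and 0.927%). In all, 13 members (37.1%) and 1.08% of genes held at least 1 of the 3. A match describes letters and not binding.

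The 250 bases before the start are printed for 5 members that hold a motif and for AGR2, SEL1L and DNAJB9, 3 members without one whose transcripts changed with treatment. Capitals mark ERSE or ERSE-II on either strand. HSP90B1 has 2 copies of ERSE, whose first bases lie at -194 and -89 from the start.
HSP90B1, chr12:103930160-103930409, plus strand: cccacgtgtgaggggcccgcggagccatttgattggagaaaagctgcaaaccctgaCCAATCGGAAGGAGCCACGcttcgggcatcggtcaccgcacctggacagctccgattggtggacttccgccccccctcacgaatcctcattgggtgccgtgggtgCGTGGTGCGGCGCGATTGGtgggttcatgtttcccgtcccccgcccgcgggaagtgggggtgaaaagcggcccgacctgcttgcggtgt
CALR, chr19:12938359-12938608, plus strand: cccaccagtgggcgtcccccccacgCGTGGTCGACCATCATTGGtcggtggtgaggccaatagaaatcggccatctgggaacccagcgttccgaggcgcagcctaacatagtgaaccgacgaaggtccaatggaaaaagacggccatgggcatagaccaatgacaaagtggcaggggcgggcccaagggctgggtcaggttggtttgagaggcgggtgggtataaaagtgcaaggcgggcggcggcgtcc
ERO1LB (ERO1B), chr1:236281959-236282208, minus strand: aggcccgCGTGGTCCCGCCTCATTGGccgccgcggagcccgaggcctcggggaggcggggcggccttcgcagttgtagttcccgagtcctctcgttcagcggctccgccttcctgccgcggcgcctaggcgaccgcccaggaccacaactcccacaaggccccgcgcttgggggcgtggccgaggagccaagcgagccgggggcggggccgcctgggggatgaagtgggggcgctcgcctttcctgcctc
XBP1, chr22:28800570-28800819, minus strand: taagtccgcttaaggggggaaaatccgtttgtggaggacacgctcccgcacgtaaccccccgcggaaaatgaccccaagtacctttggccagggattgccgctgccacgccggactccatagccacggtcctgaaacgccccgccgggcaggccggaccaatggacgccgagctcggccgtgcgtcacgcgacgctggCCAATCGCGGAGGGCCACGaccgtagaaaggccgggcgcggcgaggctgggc
SDF2L1, chr22:21642052-21642301, plus strand: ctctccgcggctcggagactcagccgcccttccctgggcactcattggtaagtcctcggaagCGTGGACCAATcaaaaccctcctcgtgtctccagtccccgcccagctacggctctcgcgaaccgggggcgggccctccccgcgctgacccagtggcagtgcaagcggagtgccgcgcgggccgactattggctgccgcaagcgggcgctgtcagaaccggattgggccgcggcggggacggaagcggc
AGR2, chr7:16805000-16805249, minus strand: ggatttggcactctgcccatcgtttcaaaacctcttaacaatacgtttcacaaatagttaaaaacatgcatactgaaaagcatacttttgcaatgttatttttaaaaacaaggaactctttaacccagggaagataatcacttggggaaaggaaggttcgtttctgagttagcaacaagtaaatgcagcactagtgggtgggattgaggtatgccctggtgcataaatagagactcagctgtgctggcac
SEL1L, chr14:81533854-81534103, minus strand: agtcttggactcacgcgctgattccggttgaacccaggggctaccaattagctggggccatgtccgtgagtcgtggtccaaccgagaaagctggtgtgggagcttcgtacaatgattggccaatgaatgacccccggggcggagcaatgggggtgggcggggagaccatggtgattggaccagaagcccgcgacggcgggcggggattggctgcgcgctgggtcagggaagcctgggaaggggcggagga
DNAJB9, chr7:108569624-108569873, plus strand: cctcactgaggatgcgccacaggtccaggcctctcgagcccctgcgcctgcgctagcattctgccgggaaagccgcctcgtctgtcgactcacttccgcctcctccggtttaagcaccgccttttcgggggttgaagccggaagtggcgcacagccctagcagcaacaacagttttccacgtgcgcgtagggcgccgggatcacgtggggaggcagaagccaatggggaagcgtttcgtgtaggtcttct

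Without an inhibitor, after 6 days with DMSO, the lines differed in most of the set. With DMSO, 21 of 40 members were lower in RPMI-8226 than in MM.1S cells and 8 were higher (limma over 16 arrays, adjusted p under 0.05), where 29.9% of the 18180 genes tested were lower and 29.2% higher. The median difference was -0.41 for the members and -0.01 for all genes. SEL1L, the adaptor of the ubiquitin ligase complex of ERAD, stood furthest apart. Its log2 level was 0.53 and 0.69 in RPMI-8226 and 3.50 and 3.70 in MM.1S cells, a level in RPMI-8226 of 0.126 of that in MM.1S (-2.99 ± 0.15 SE, adjusted p = 4.8e-08). EIF2AK3 was at -1.48 and -1.32 against 0.24 and 0.31 (0.313 of the MM.1S level, adjusted p = 3.5e-05). WFS1, an ER membrane protein, was at 0.64 and 0.39 against 2.005 and 2.22 (0.330 of the MM.1S level). The groups did not overlap for any of these genes.

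The other members of the lower group included DNAJB9, a DnaJ cofactor of BiP (difference -1.28 ± 0.21, adjusted p = 0.0008), HERPUD1, an ERAD scaffold (-1.14), and XBP1 itself. The XBP1 level was 6.38 and 6.47 in RPMI-8226 and 7.31 and 7.30 in MM.1S cells, or 0.543 of the MM.1S level (-0.88 ± 0.12, adjusted p = 0.00014). ERO1LB was at least 1.37-fold lower, a bound because its probe was not above background in RPMI-8226 cells, and with normexp background correction the difference was -0.09 (adjusted p = 0.60). Higher in RPMI-8226 cells were EDEM2, which acts in the trimming of mannose from misfolded glycoproteins (2.59-fold), the disulfide reductase gene DNAJC10 (0.88 ± 0.17), ATF6 (0.58 ± 0.08), PDIA6 and SEC11C, a signal peptidase subunit. EDEM2 stood at 0.99 and 1.09 in RPMI-8226 and at -0.44 and -0.23 in MM.1S cells. PDIA6 and SEC11C lost the call when the arrays were quantile normalized (0.27, adjusted p = 0.055, and 0.04, adjusted p = 0.778). AGR2 was also past the threshold but was not above background with DMSO in either line, so no fold is given.

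**Figure D1:**
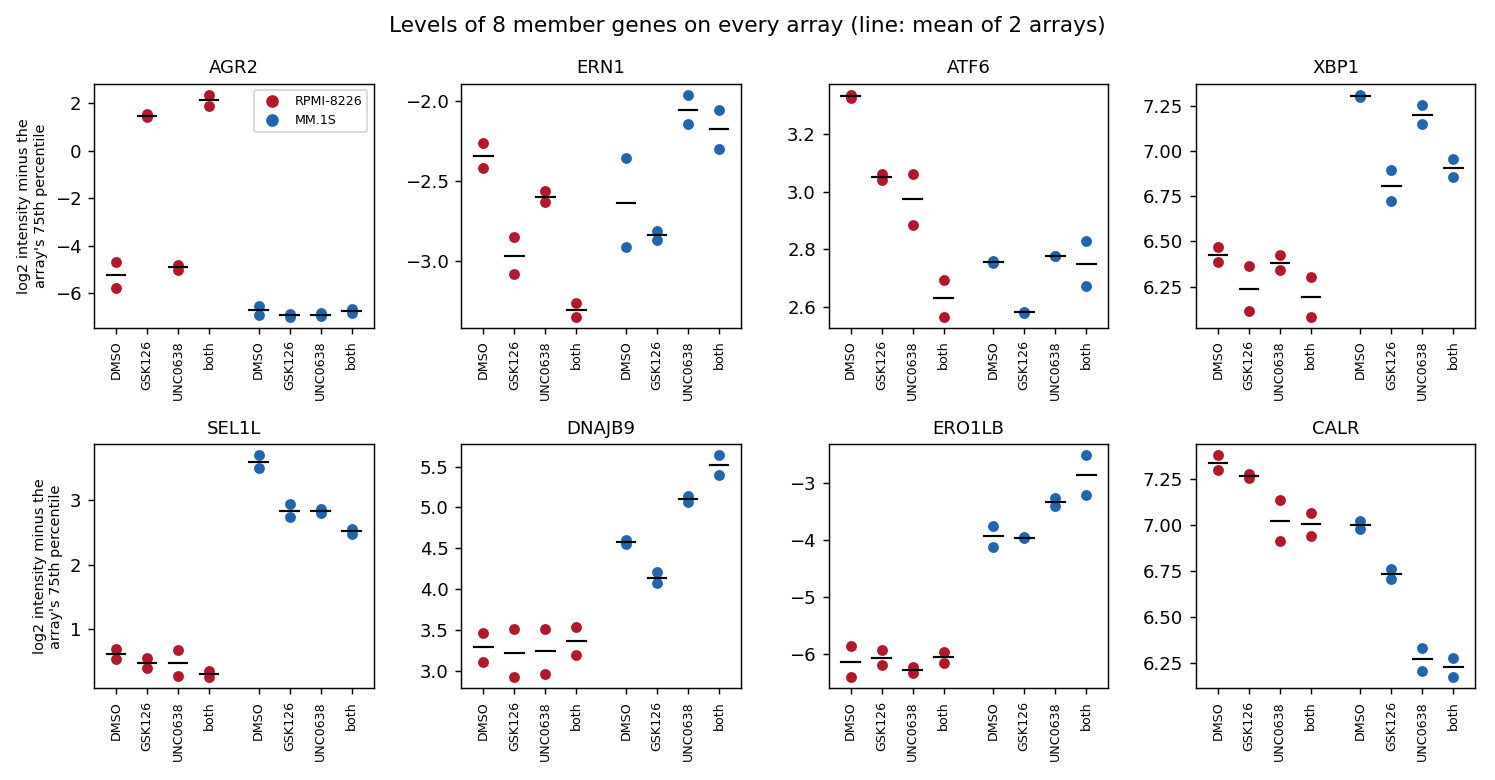
Log2 level (log2 intensity minus the 75th percentile of the array, vertical axis) of the members the results turn on, by treatment, with 1 point per array and a bar at the mean of 2 arrays, for RPMI-8226 and MM.1S. SEL1L lies near 0.6 in RPMI-8226 and 3.6 in MM.1S cells with DMSO, and AGR2 leaves the background only in RPMI-8226 cells given GSK126 or the combination treatment.

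With the combination treatment, RPMI-8226 cells showed a very large rise of AGR2 and a fall of HSP90B1, CANX, ERN1 and ATF6. Of 39 members tested, 1 was higher (2.56%; 8.16% of the 16018 genes tested were higher) and 4 were lower (10.3%; 4.73% of genes were lower). Fold changes were negative in 36 and positive in 3, with a median of -0.33 against -0.10 for all genes, and 18 members had an unadjusted p under 0.05. Same-numbered arrays of this line deviated together, and with the replicate number as a block 11 members passed, the same 5 with SDF2L1, PDIA6, DNAJC10, EDEM1, DERL3 and SPCS3, all of them lower (adjusted p 0.0165 to 0.0479). The shares of all genes above are without the block, so these 11 have no share of genes to be read against. Without the block, leaving out DMSO or combination replicate 1 gave 1 member, DMSO replicate 2 or either UNC0638 array 2, and combination replicate 2 gave 3. Summed over the 8 plasma cell markers, the level was 211 and 251 with DMSO and 129 and 165 with the combination treatment, in units of the array's 75th percentile intensity; TNFRSF17, IRF4 and SDC1 were lower and SLAMF7 higher. Its part in these results was not tested, and in cultures measured as a whole, fewer cells of a type and less RNA per cell cannot be told apart.

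AGR2 encodes a protein disulfide isomerase of secretory epithelium. In RPMI-8226 cells its log2 level was -5.79 and -4.66 with DMSO, -4.79 and -5.01 with UNC0638, 1.55 and 1.43 with GSK126, and 2.37 and 1.90 with the combination treatment. It was above background on the 4 arrays of the groups given GSK126 and on none of the other 4. The probe was tested because of these 4 arrays alone, since the filter asked for signal on both arrays of some group. Its p-values and its count as higher therefore add no support beyond the levels themselves. The rise was at least 59.1-fold with GSK126 (adjusted p = 0.0076) and at least 92.4-fold with the combination treatment (adjusted p = 0.00027), each a bound set by the lowest signal above background on the DMSO arrays. These bounds hold for this processing only. Over the alternatives, the log2 rise with the combination treatment was as low as 4.18, against 7.36 here. Against UNC0638, the combination treatment gave at least 93.4-fold (adjusted p = 0.00075), and against GSK126 the difference was 0.65 ± 0.36 (adjusted p = 0.398). In MM.1S cells the probe was not well above background on any of the 8 arrays. Its promoter, printed above, holds none of the 3 motifs. The combination call held without each of the 8 arrays in turn, which for the same reason adds no support beyond the levels.

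Among the sensors in RPMI-8226 cells, ERN1 was at -2.26 and -2.42 with DMSO, -3.08 and -2.85 with GSK126, -2.57 and -2.63 with UNC0638, and -3.35 and -3.26 with the combination treatment. The combination arrays lay below all others, at 0.513 of the DMSO level (-0.96 ± 0.15, adjusted p = 0.0106). The call was lost without DMSO replicate 1 (-0.88, adjusted p = 0.054), without combination replicate 1 (-0.92, adjusted p = 0.071), and with normexp background correction (-0.39, adjusted p = 0.067). ATF6 went from 3.34 and 3.33 with DMSO to 3.06 and 3.04, 2.89 and 3.06, and 2.57 and 2.70 with GSK126, UNC0638 and the combination treatment, respectively. Each treated group lay below DMSO, and the difference passed for the combination treatment (-0.70 ± 0.14, adjusted p = 0.0238), although leaving out either array of the DMSO, UNC0638 or combination group raised the adjusted p to between 0.056 and 0.130. XBP1 was at 6.08 and 6.30 with the combination treatment (-0.23 ± 0.16, adjusted p = 0.350), and this difference was 0.04 after quantile normalization. EIF2AK3 was at -0.99 and -1.17 (0.32 ± 0.21, adjusted p = 0.326).

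HSP90B1 encodes GRP94, the HSP90 of the ER, and its promoter holds the pair of ERSE copies shown above. In RPMI-8226 cells its level was 7.13 and 7.24 with DMSO, 6.83 and 6.93 with GSK126, 6.95 and 6.94 with UNC0638, and 6.31 and 6.61 with the combination treatment. The fall was -0.72 ± 0.15 (adjusted p = 0.0309), and a second HSP90B1 probe fell by 1.04 (adjusted p = 0.0144). On the first probe the fall was -0.41 (adjusted p = 0.097) after quantile normalization and -0.59 (adjusted p = 0.0502) with the percentile of detected probes. The call on the first probe was lost in 5 of 8 fits that left out an array (either DMSO array, either UNC0638 array, or combination replicate 1), with adjusted p of 0.075 to 0.156. CANX, the membrane lectin calnexin, was at 1.88 and 1.80, 1.28 and 1.43, 1.62 and 1.76, and 0.98 and 1.30 in the same order. Its fall of 0.70 (SE 0.16, adjusted p = 0.0406) was not shared by its other probe (-0.14, adjusted p = 0.661) and was lost without any 1 of the 8 arrays (adjusted p 0.051 to 0.193). All 8 ERAD members and all 7 members of translocation and signal peptide cleavage missed the threshold in this line without the block, with medians of -0.30 and -0.31. The block added EDEM1, DERL3 and SPCS3, and normexp gave 3 lower in ERAD and 2 in translocation.

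Few members passed with single inhibitors in RPMI-8226 cells. With GSK126 AGR2 was higher and no other member passed (1 higher and 0 lower of 39, against 0.656% and 0.0499% of genes), with 4 members at an unadjusted p under 0.05. Fold changes with GSK126 were negative in 35 members and positive in 4. For UNC0638, limma called 0 higher and 0 lower (0.649% and 0.0687% of genes), with 3 members at an unadjusted p under 0.05. The member medians were -0.16 and -0.10. The combination treatment compared with GSK126 alone gave 0 higher and 0 lower (2.22% and 0.531% of genes; 6 members at an unadjusted p under 0.05), and compared with UNC0638 alone gave 1 higher, AGR2, and 0 lower (3.1% and 0.612% of genes). With the replicate block ERN1 was also lower than with UNC0638 alone (-0.71, adjusted p = 0.0467). The comparisons with DMSO share the DMSO arrays of their line.

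**Figure D2:**
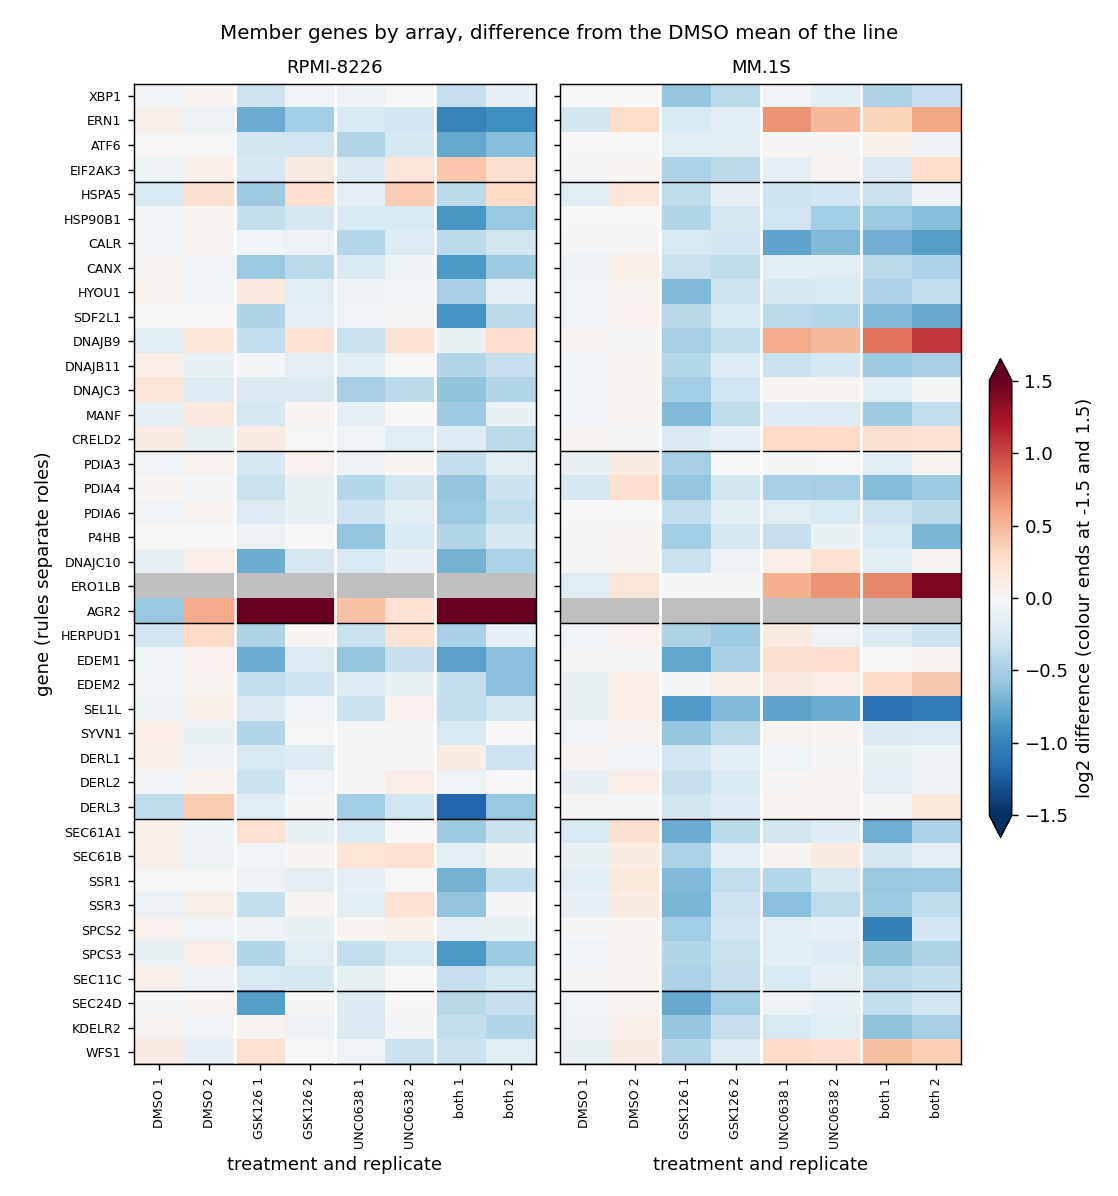
Difference of each array's log2 level from the mean of the DMSO arrays of its line, for the 40 members (rows, ordered by role) and the 16 arrays (columns); the colours end at -1.5 and 1.5, and grey marks ERO1LB in RPMI-8226 and AGR2 in MM.1S cells, which were not tested. Most members are negative with the combination treatment in both lines, and DNAJB9 and ERO1LB are positive in MM.1S cells.

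In MM.1S cells the combination treatment changed 22 of the 39 members tested, in both directions, and a similar share of all genes. DNAJB9, ERO1LB, WFS1, EDEM2 and CRELD2 rose, and 17 members fell, led by SEL1L, CALR, SDF2L1, HSP90B1 and SEC61A1. That is 5 higher of 39 (12.8%; 23.2% of the 16986 genes tested were higher) and 17 lower (43.6%; 32.2% of genes were lower). The median was -0.33 against -0.11 for all genes, and after quantile normalization it was 0.02, with 6 members higher and 3 lower. Leaving out either DMSO array gave 13 members in all, either UNC0638 array 15, and combination replicate 1 or 2 gave 12 or 14. The summed plasma cell markers were 411 and 421 with DMSO and 276 and 277 with the combination treatment, and 7 of the 8 markers were lower (median -0.65). After quantile normalization 4 of the 8 markers were lower and 1 was higher (median -0.24). The part of that change in the members' results was not tested.

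Of the chaperones and their cofactors, 2 of 11 rose and 7 fell (23.2% and 32.2% of all genes). Their median was -0.43 (-0.15 after quantile normalization, when 2 rose and 2 fell). DNAJB9 was at 4.60 and 4.55 with DMSO, 4.08 and 4.21 with GSK126, 5.14 and 5.07 with UNC0638, and 5.39 and 5.64 with the combination treatment. The UNC0638 and combination arrays lay above DMSO and the GSK126 arrays below it. The rise was 1.91-fold with the combination treatment (0.94 ± 0.11, adjusted p = 0.0010) and 0.53 in log2 with UNC0638 (adjusted p = 0.017), and the combination rise passed under each of the alternatives tried. CRELD2, an ER protein secreted under stress, was at 3.66 and 3.60 with DMSO and at 3.87 and 3.85 with the combination treatment (0.23 ± 0.08, adjusted p = 0.0429), a call that was lost without any 1 of the 8 arrays (adjusted p 0.061 to 0.160). Its rise with UNC0638 was 0.29 (adjusted p = 0.0354).

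CALR encodes the lectin chaperone calreticulin, and its promoter holds ERSE. Its level in MM.1S cells was 6.97 and 7.02 with DMSO, 6.76 and 6.71 with GSK126, 6.21 and 6.33 with UNC0638, and 6.28 and 6.17 with the combination treatment. The UNC0638 and combination arrays lay well below the others, at 0.586 of the DMSO level for the combination treatment (-0.77 ± 0.09, adjusted p = 0.00091) and at -0.73 for UNC0638 (adjusted p = 0.0040). SDF2L1, a partner of the ER cochaperone DNAJB11, was at 7.04 and 7.17, 6.68 and 6.86, 6.71 and 6.67, and 6.44 and 6.35 in the same order (-0.71 ± 0.10, adjusted p = 0.0018). HSP90B1 was at 7.54 and 7.56, 7.11 and 7.30, 7.26 and 7.03, and 6.99 and 6.91 (-0.60 ± 0.11, adjusted p = 0.0056). All treated arrays lay below the DMSO arrays for both genes. SDF2L1 and HSP90B1 lost the call for the combination treatment after quantile normalization (-0.23, adjusted p = 0.108, and -0.15, adjusted p = 0.248), and CALR passed with a smaller fall (-0.28, adjusted p = 0.0394). DNAJB11 (-0.52), MANF (-0.45), CANX (-0.43) and HYOU1 (-0.42) were the other chaperones that fell, of which CANX alone passed after quantile normalization. HSPA5, the central ER chaperone BiP, was at 1.74 and 2.10 with DMSO and 1.58 and 1.84 with the combination treatment (-0.21 ± 0.16, adjusted p = 0.320). The other CANX probe differed by -0.02 (adjusted p = 0.917).

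The sensors gave 1 fall in 4 (32.2% of all genes fell). XBP1 was at 7.31 and 7.30 with DMSO, 6.72 and 6.90 with GSK126, 7.26 and 7.15 with UNC0638, and 6.86 and 6.96 with the combination treatment. The GSK126 arrays (-0.50, adjusted p = 0.0374, and -0.31, adjusted p = 0.128, after quantile normalization) and the combination arrays (-0.40 ± 0.10, adjusted p = 0.0143) lay below the other 4, but the combination difference was 0.06 (adjusted p = 0.663) after quantile normalization and -0.23 (adjusted p = 0.083) with the percentile of detected probes, and its call was lost without either DMSO array or combination replicate 1 (adjusted p 0.058 to 0.064). In the order of XBP1 levels over the 8 groups, the 4 RPMI-8226 groups lay below the 4 MM.1S groups, the GSK126 and combination groups were lowest in each line, and these neighbouring groups overlapped. ERN1 was at -2.92 and -2.36 with DMSO and -2.30 and -2.06 with the combination treatment (0.46 ± 0.20, adjusted p = 0.092), and it passed with the percentile of detected probes (0.63, adjusted p = 0.039) and without DMSO replicate 2 (0.74, adjusted p = 0.018). ATF6 differed from DMSO by -0.01 ± 0.08 and EIF2AK3 by 0.03 ± 0.17, and neither passed.

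Among the disulfide enzymes, ERO1LB, which reoxidizes protein disulfide isomerases and whose promoter holds ERSE, was at -4.12 and -3.75 with DMSO, -3.97 and -3.96 with GSK126, -3.40 and -3.27 with UNC0638, and -3.22 and -2.52 with the combination treatment. The combination level was 2.10-fold that with DMSO (1.07 ± 0.24, adjusted p = 0.0114). The size of this rise depended on the processing, and over the alternatives it was as low as 0.37 in log2. Without DMSO replicate 1 the rise was 0.88 (adjusted p = 0.065). PDIA4 (-0.60) and PDIA6 (-0.35) fell, but both lost the call after quantile normalization (-0.26 and -0.04) and with the percentile of detected probes (-0.43 and -0.19), and PDIA3, P4HB and DNAJC10 did not pass (-0.06, -0.46 and -0.07).

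ERAD members went in opposite directions. SEL1L was at 3.50 and 3.70 with DMSO, 2.75 and 2.94 with GSK126, 2.80 and 2.86 with UNC0638, and 2.48 and 2.56 with the combination treatment. Every treated array lay below both DMSO arrays, and the log2 falls were 0.76 with GSK126 (adjusted p = 0.0181), 0.77 with UNC0638 (adjusted p = 0.0062) and 1.08 with the combination treatment (SE 0.11, adjusted p = 0.00067, to 0.473 of the DMSO level). Both other SEL1L probes fell too (-0.95 and -0.94). The 8 RPMI-8226 levels of SEL1L ran from 0.25 to 0.69, below every MM.1S level. EDEM2 was at -0.44 and -0.23 with DMSO and -0.05 and 0.07 with the combination treatment (0.35 ± 0.11, adjusted p = 0.0330), a call lost in 5 of 8 fits that left out an array (DMSO replicate 1 and either UNC0638 or combination array, adjusted p 0.057 to 0.156). EDEM1 was at 0.74 and 0.78 with DMSO, -0.02 and 0.27 with GSK126, 1.00 and 1.01 with UNC0638, and 0.76 and 0.81 with the combination treatment, so that the GSK126 arrays alone lay below DMSO (-0.63, adjusted p = 0.0283). The other 5 ERAD members did not pass with the combination treatment.

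Of the 7 members of translocation and signal peptide cleavage, 4 fell and 0 rose (32.2% and 23.2% of all genes). The median was -0.53 (-0.16 after quantile normalization, with 0 lower). Those that fell were SEC61A1, the channel through which chains enter the ER (-0.60 ± 0.20, adjusted p = 0.0481), SSR1 (-0.55), SPCS3 (-0.53) and SEC11C (-0.38). SEC61A1 was at 2.42 and 2.91 with DMSO and 1.93 and 2.20 with the combination treatment. The call was lost in 7 of 8 fits that left out an array, every one except that without DMSO replicate 1 (adjusted p 0.053 to 0.211). In the vesicle group, WFS1 rose from 2.005 and 2.22 to 2.57 and 2.47 (0.40 ± 0.12, adjusted p = 0.0306), a call lost in 5 of 8 such fits (DMSO replicate 1 and either UNC0638 or combination array, adjusted p 0.053 to 0.148). KDELR2, a receptor that returns ER proteins from the Golgi (-0.56), and SEC24D, a COPII cargo adaptor (-0.33), fell. After quantile normalization neither passed (-0.23 and -0.12), and SEC24D also lost the call with normexp (-0.25) and detected probes (-0.16).

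**Figure D3:**
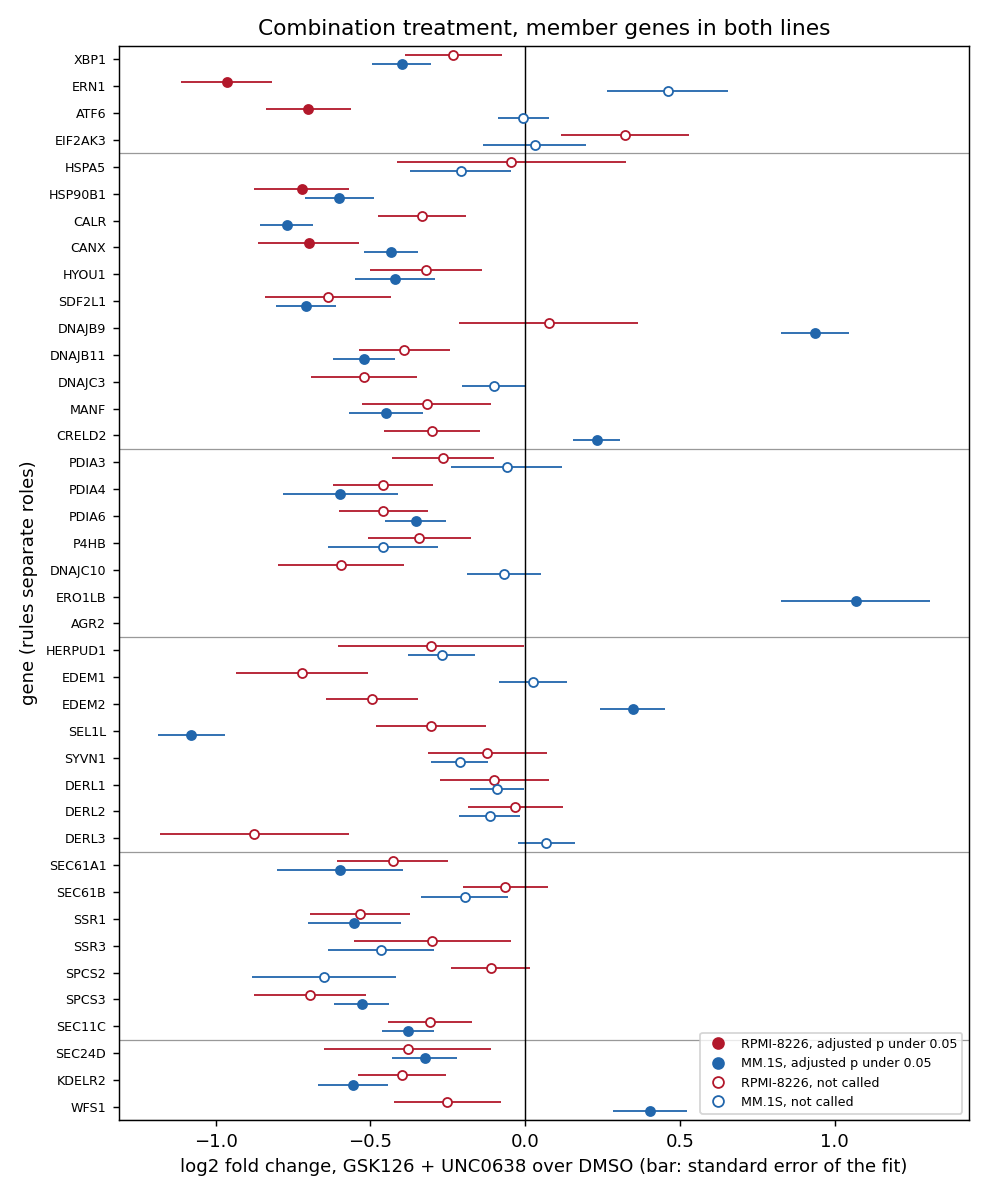
Log2 fold change of each member with GSK126 + UNC0638 against DMSO (horizontal axis), grouped by role, for RPMI-8226 and MM.1S; bars are standard errors and filled points passed the test. AGR2 (7.36 in RPMI-8226) lies off the axis and is left out. DNAJB9 and ERO1LB stand to the right in MM.1S cells and SEL1L to the left.

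The inhibitors given alone also changed members in MM.1S cells; GSK126 was not tested against UNC0638. GSK126 lowered 7 of 39 members and raised 0 (2.36% of genes were lower and 5.89% higher): SEL1L, SEC24D (-0.64), EDEM1, HERPUD1 (-0.50), XBP1, SYVN1 (-0.49), which encodes the ubiquitin ligase HRD1, and SEC11C (-0.41). Of these, 4 belong to ERAD and none to the chaperones, and SEL1L, SEC24D and EDEM1 passed under all 4 scalings. The medians of these roles were close, at -0.39 for the 8 ERAD members (-0.76 to 0.03) and -0.35 for the 11 chaperones (-0.52 to -0.17). Fold changes were negative for 38 of 39 members, with a median of -0.39 against -0.05 for all genes, and 27 members had an unadjusted p under 0.05. The calls were sensitive to single arrays: 0 members passed without DMSO replicate 2 or GSK126 replicate 1, 3 without GSK126 replicate 2, and 1 without each of the other 5. UNC0638 raised DNAJB9 and CRELD2 and lowered SEL1L, CALR, HSP90B1 (-0.41, adjusted p = 0.0404) and SDF2L1 (-0.41, adjusted p = 0.0253), or 2 higher and 4 lower (13.8% and 16.5% of genes), with 15 fold changes positive and 24 negative. HSP90B1 and SDF2L1 lost this call after quantile normalization (-0.08 and -0.09). Without either UNC0638 array 2 members passed, and without either DMSO array 3.

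Adding UNC0638 to GSK126 in MM.1S cells raised 7 members and lowered 2 (16% and 22.5% of genes). The rises, as log2 differences between the combination treatment and GSK126 alone, were DNAJB9 (1.37, adjusted p = 0.0012), ERO1LB (1.09, adjusted p = 0.0163), WFS1 (0.73, adjusted p = 0.0067), ERN1 (0.66, adjusted p = 0.0417), EDEM1 (0.66, adjusted p = 0.0068), CRELD2 (0.40, adjusted p = 0.0101) and DERL3 (0.31, adjusted p = 0.0463). CALR (-0.51) and SDF2L1 (-0.38) were lower. After quantile normalization ERN1 (0.60, adjusted p = 0.0604), CALR (-0.18, adjusted p = 0.154) and SDF2L1 (-0.07, adjusted p = 0.617) lost the call. The median was 0.10 against -0.07 for all genes. Without GSK126 replicate 1, 5 members passed, and 6 to 8 without each of the others. Adding GSK126 to UNC0638 gave 0 higher and 0 lower in limma (6.71% and 7.75% of genes), with 9 members at an unadjusted p under 0.05. DNAJB9 differed by 0.41 (adjusted p = 0.0576).

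The responses of the 2 lines were compared directly, as the response in RPMI-8226 minus that in MM.1S. For the combination treatment 2 of 40 members were higher and 3 lower (8.13% and 6.51% of genes). ERN1 differed by -1.42 (SE 0.25, adjusted p = 0.0054), ATF6 by -0.69 (SE 0.14, adjusted p = 0.0121), EDEM2 by -0.84 (SE 0.17, adjusted p = 0.0124) and SEL1L by 0.77 (SE 0.21, adjusted p = 0.0355). AGR2 also passed, but its probe was never above background in MM.1S cells. The ERN1 and ATF6 calls held without each of the 16 arrays in turn, EDEM2 was lost without MM.1S DMSO replicate 1 or combination replicate 2 (adjusted p = 0.054 and 0.052), and SEL1L was lost in 10 of the 16 fits (any DMSO or combination array and either MM.1S UNC0638 array, adjusted p 0.053 to 0.123). For GSK126 AGR2 alone passed (1 higher and 0 lower; 0.44% and 0.484% of genes), and for UNC0638 limma called 0 in either direction (1.26% and 2.01% of genes; 8 members at an unadjusted p under 0.05). HSP90B1 and CANX were lower with the combination treatment in both lines, which is 50% of the 4 members lower in RPMI-8226 and 11.8% of the 17 lower in MM.1S cells. Over all genes tested in both lines these shares were 64.1% and 8.10%. With the block in RPMI-8226 cells, SDF2L1, PDIA6 and SPCS3 were also lower in both, and no share of all genes is given for that fit. AGR2 and ERO1LB were each tested in 1 line, so a shared rise could not be seen for them. Over the 6 comparisons with DMSO, 28 of the 40 members passed at least once without the block, as did 58.7% of the 18180 genes. DERL1, DERL2, EIF2AK3, HSPA5, P4HB, PDIA3 and SEC61B passed in none of them, with or without the block.

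Scaling mattered for how many members counted as lower. The combination treatment moved the median of all genes to -0.11 in MM.1S and -0.10 in RPMI-8226 cells. When the percentile was taken over probes detected on all arrays, these medians became 0.05 and 0.03, and the share of all calls that were higher went from 41.8% to 57.1% in MM.1S and from 63.3% to 79.2% in RPMI-8226 cells. Relative to all genes, the members' median was -0.21 in MM.1S cells under both percentiles, -0.25 with normexp and 0.07 after quantile normalization. In RPMI-8226 cells it was -0.23, -0.23, -0.31 and -0.19. The members passing in MM.1S cells went from 5 higher and 17 lower to 6 and 8 with detected probes, 6 and 3 with quantile normalization, and 4 and 20 with normexp. DNAJB9, EDEM2, ERO1LB and WFS1 were higher and CALR, CANX and SEL1L lower under all 4 scalings. In RPMI-8226 cells ATF6 passed under all 4. So did AGR2, but it was tested only because of the arrays where it was high.

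**Figure D4:**
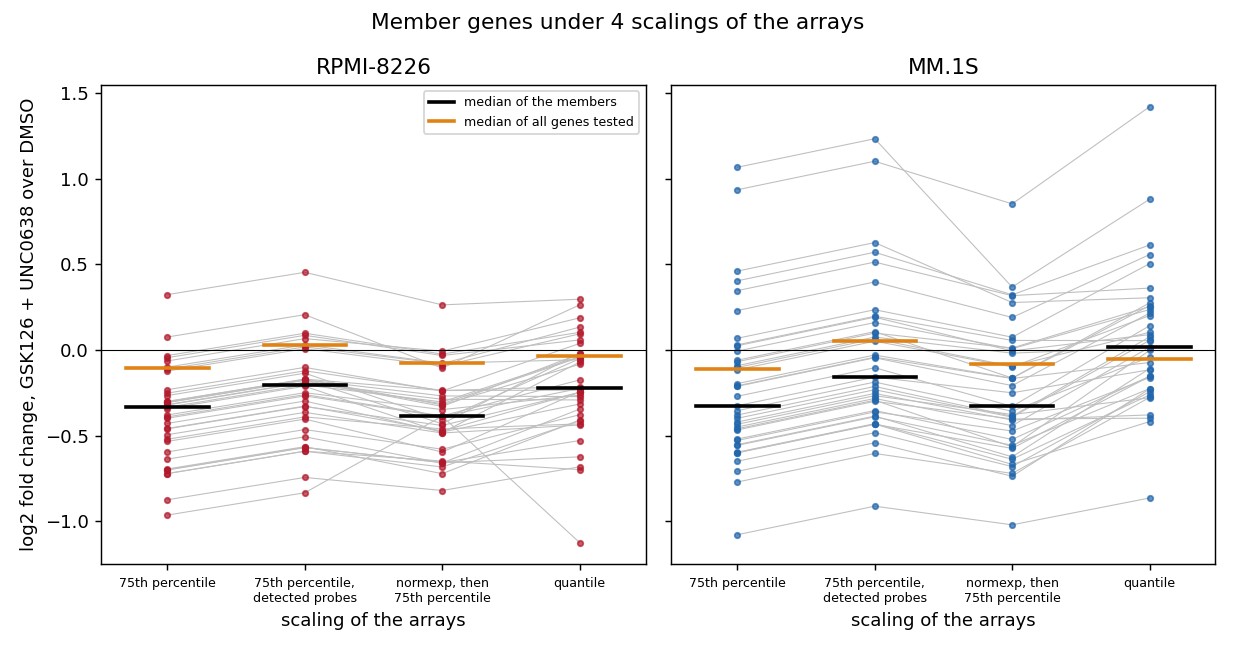
Log2 fold changes of the members with GSK126 + UNC0638 against DMSO under 4 scalings of the arrays, for RPMI-8226 and MM.1S, with 1 point per member, the members' median and the median of all genes; AGR2 is left out of the points. In MM.1S cells the members' median moves from -0.33 to 0.02 with quantile normalization, and in RPMI-8226 cells it stays below that of all genes under each scaling.

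Motif-bearing members went in both directions with the combination treatment in MM.1S cells, where 23.2% of all genes rose and 32.2% fell. There, of the 8 members with ERSE 2 rose, ERO1LB and CRELD2, and 5 fell, with a median of -0.38. Of the 13 members with any of the 3 motifs 2 rose and 7 fell (median -0.40), and of the 21 tested members whose promoters held none 3 rose and 8 fell (median -0.21). In RPMI-8226 cells all 12 tested members with a motif were negative (-0.72 to -0.04), with 0 called higher and 2 lower (8.16% and 4.73% of all genes). The 22 members without one ran from -0.96 to 7.36, with 1 higher and 2 lower. Both medians were -0.33. These groups were described and not tested against each other.

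Other genes of the same compartment, from hand-written lists, were counted in the same fits. In MM.1S cells 23.2% of all genes were higher and 32.2% lower with the combination treatment, without quantile normalization. In MM.1S cells the combination treatment lowered 9 of 16 other translocation and signal recognition particle genes and raised 0 (median -0.36; after quantile normalization 5 fell and 4 rose, median -0.01), among them SRPRB (-1.06) and SRP19 (-0.72). Of 11 oligosaccharyltransferase and glycan assembly genes 5 fell and 0 rose (median -0.31; after quantile normalization 3 fell and 1 rose, median 0.14), with ALG5 at -0.84 and ALG8 at -0.74. Of 24 genes of transport between ER and Golgi 10 fell and 2 rose (median -0.31; after quantile normalization 6 fell and 5 rose, median -0.09), with KDELR1 at -1.05, LMAN1 at -0.71 and SEC24B at 0.51. Of 17 other ERAD genes 7 fell, including AUP1 (-0.94), and 2 rose, including MAN1B1 (0.54). The median was -0.26, and after quantile normalization 2 fell and 3 rose with a median of 0.05. Of 18 other folding genes 5 fell, including FKBP11 (-0.80), and 2 rose, ERP44 (0.69) and DNAJB2 (0.48). The median was -0.23, and after quantile normalization 2 fell and 3 rose with a median of 0.08.

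The PERK-ATF4 arm and the cytosolic heat shock genes had the lowest medians of these lists in MM.1S cells, where 23.2% of all genes were higher and 32.2% lower. Of 11 genes of the PERK-ATF4 arm 7 fell and 1 rose (median -0.81; after quantile normalization the same counts, median -0.57). CHAC1, which degrades glutathione, fell by 3.91 on the log2 scale, CEBPB fell by 1.38, and VLDLR rose by 1.54. Of 16 cytosolic heat shock genes 14 fell and 0 rose (median -0.86, and 13 fell and 1 rose after quantile normalization, with a median of -0.61), led by the cochaperone genes STIP1 (-1.48) and AHSA1 (-1.15). Of 12 genes of a mixed list, which held relatives of the sensors and other genes, 3 rose and 3 fell (median -0.05). After quantile normalization 5 rose and 2 fell (median 0.18). BBC3, which is not a relative of the sensors, was at 1.47 and ATF6B at 0.43. In RPMI-8226 cells, where 8.16% of all genes were higher and 4.73% lower, the same lists held few calls. They were CHAC1 (-2.10), 1 translocation gene (SPCS1, -0.61), 4 transport genes including LMAN1 (-0.86) and KDELR3 (-0.75), 3 folding genes that fell (TXNDC5, -1.36, TXNDC11, -1.10, and FKBP11, -1.05) and DNAJB2, which rose (1.11). There were 0 calls of 12 oligosaccharyltransferase, 17 other ERAD, 16 heat shock and 12 mixed-list genes. Lists differ from the members in size, and no list was tested as a set.

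Marker genes of other cell types differed between the combination treatment and DMSO. The summed monocyte and granulocyte markers went from 0.572 and 0.961 to 4.48 and 5.21 in RPMI-8226 cells and from 0.206 and 0.211 to 0.660 and 0.819 in MM.1S cells, with FCGR3A and MPO not above background on any array. The summed B cell markers went from 3.97 and 4.39 to 5.42 and 9.41 and from 6.00 and 6.48 to 7.97 and 8.71, and T and NK cell markers from 9.14 and 11.1 to 13.4 and 14.8 and from 1.57 and 1.73 to 2.48 and 2.72. Erythroid markers went from 8.42 and 9.70 to 4.02 and 5.00 in RPMI-8226 cells and from 14.4 and 15.2 to 22.2 and 22.7 in MM.1S cells, and fibroblast and endothelial markers from 0.504 and 0.624 to 1.23 and 1.29 and from 0.665 and 0.755 to 0.793 and 1.15. Their part in the members' results was not tested.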

How the data were processed

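Total RNA of 16 cultures was amplified, labelled and hybridised by the authors to single-colour Agilent arrays. The authors deposited the scanner output (Agilent Feature Extraction, version 10.7 per the submitters' processing notes), in which the intensity of each spot is background-subtracted and not normalized between arrays, and a series table with the same intensities rounded to 3 significant digits (99.9958% of 939472 values equal after rounding). The study's methods refer to an earlier description for the arrays, not used here, and name Gene Spring GX; its results count probes past 2-fold. Control spots (4259 of 62976) and outlier spots were left out. Log2 of the deposited intensity minus the array's 75th percentile was averaged where a probe had several spots. A probe was tested in a line if some treatment group had it well above background on both of its arrays, which left 23199 probes in RPMI-8226 and 25102 in MM.1S, and the brightest probe stood for a gene. A level below background is a bound, computed against the lowest signal among probes above background.

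Models were fitted per line (8 arrays), or to all 16 arrays for differences between lines, with lmFit and eBayes of limma (version 3.58.1, in R 4.3.3), with Benjamini-Hochberg adjustment over all kept probes and a threshold of 0.05; values after ± are standard errors. Scripts were tested on simulated data. With 2 arrays per group, p-values measure the spread between these cultures, which were called biological replicates without further detail, and the number of arrays and the signal over background limit the precision. Named genes were the 4 sensors, the 5 largest rises and falls called with the combination treatment and beyond both DMSO arrays, members past 2-fold, the 5 furthest apart with DMSO in each direction, and those whose responses differed; EDEM1, PDIA4, the other called members and the second probes were added afterwards. Some genes of the other lists are not reported here. The members, lists and tests were chosen with earlier results of these data known. To see whether replicate numbers pair the samples, deviations from group means were correlated across probes between same-numbered arrays. All 6 pairs of groups were over 0.1 in RPMI-8226 (r 0.254 to 0.415), and the numbers were taken as pairs there, although they also follow the slide row. In MM.1S 5 of 6 were (r 0.0847 to 0.225), and they were not. Promoter sequences are from RefSeq (GRCh38.p14), and probe coordinates from the scanner files (GRCh37). Alternatives changed the scaling, background correction, filter, prior variance, probe choice, source table, block, samples in the fit and each array in turn.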

Additional observations from a re-analysis of the deposited data

Results flagged for a closer look

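The response to a treatment differed between the lines, by a direct test in limma, for 6 results. Of all genes, 8.13% were higher and 6.51% lower in this test for the combination treatment, and 0.44% and 0.484% for GSK126. The response to the combination treatment, in RPMI-8226 minus MM.1S, was -1.42 for ERN1, -0.69 for ATF6, -0.84 for EDEM2, 0.77 for SEL1L and 7.38 for AGR2, and the response to GSK126 was 6.93 for AGR2. ERN1 fell in RPMI-8226 cells and was 0.46 higher, without passing, in MM.1S cells. SEL1L fell in MM.1S cells, and its other RPMI-8226 probe differed by 0.02. The SEL1L call in the direct limma test was lost after quantile normalization (0.59, adjusted p = 0.081) and with no filter (adjusted p = 0.082). The AGR2 values rest on a probe below background in MM.1S cells, so that their size is not a measured difference. Each line had its own slide, so line and slide cannot be told apart. Groups of 2 arrays are too small to single out an array.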

How the results depend on the processing

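Over all alternatives, 217 of 290 counts of members stayed within 1.5 times the reported count and 73 moved. The 790 fold changes of named genes kept direction and call in 686, lost the call in 94, gained it in 2 and changed sign in 8. With 1 fit over 16 arrays, 17 members passed for the combination treatment in RPMI-8226 (1 against GSK126, 5 against UNC0638), and 1 for GSK126 and 3 for UNC0638 in MM.1S. Requiring signal on all arrays, which removes AGR2, left 0 for GSK126, 0 for the combination treatment against UNC0638 in RPMI-8226 and 0 for the GSK126 response difference, and gave 13 for GSK126, 14 against GSK126 and 2 against UNC0638 in MM.1S. An intensity trend gave 11 for the combination treatment in RPMI-8226, 22, 10, 16 and 9 in MM.1S (GSK126, UNC0638, combination against each), and 9 response differences. The mean over probes gave 2 in RPMI-8226 and 3 in MM.1S against UNC0638. No filter gave 2 for the combination treatment in RPMI-8226, and 0, 2, 12 and 5 in MM.1S (GSK126, UNC0638, combination, combination against GSK126). Normexp gave 11 in RPMI-8226, 16, 14 and 5 in MM.1S (GSK126, combination against GSK126 and against UNC0638), and 8 response differences. Only the 2 groups compared gave 2 for the combination treatment in RPMI-8226 and 0 for GSK126 in MM.1S. The percentile of detected probes gave 3 in RPMI-8226, and 14 and 1 (against UNC0638) in MM.1S. Quantile normalization gave 2 against UNC0638 in RPMI-8226, 3, 9, 15 and 1 in MM.1S (GSK126, combination, against GSK126, against UNC0638), and 8 response differences. With the replicate block, 11 members passed for the combination treatment and 2 against UNC0638 in RPMI-8226. In MM.1S, where the numbers were not taken as pairs, the block gave 15, 10, 15 and 2 (GSK126, UNC0638, combination against each), and 1 and 11 response differences for UNC0638 and the combination treatment; it changed no other count by over 1.5 times. Leaving out each array in turn gave, in RPMI-8226, 1 to 1 for GSK126, 0 to 0 for UNC0638, 1 to 5 for the combination treatment (1 without DMSO or combination replicate 1), 0 to 0 against GSK126 and 1 to 1 against UNC0638, and, in MM.1S, 0 to 3, 2 to 5, 12 to 21, 5 to 8 and 0 to 0. It gave 24 to 29 for the lines with DMSO and 1 to 1, 0 to 1 and 3 to 6 for the response differences to GSK126, UNC0638 and the combination treatment (3 without MM.1S DMSO replicate 1; 1 for UNC0638 without MM.1S DMSO replicate 2). With the combination treatment XBP1 changed sign after quantile normalization (0.038 in RPMI-8226, 0.056 in MM.1S). In MM.1S, ATF6 changed sign with quantile normalization (0.24), normexp (0.0074), and detected probes (0.16), and without combination replicate 2, over a range of -0.085 to 0.072 on leaving out arrays. EIF2AK3 changed sign without DMSO replicate 1 (-0.0048) or combination replicate 2, over a range of -0.22 to 0.28. The causes were not tested.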
